A study of Daphnia magna with 48 samples.

Results

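Chronic mild intermittent hypoxia (CMIH) was examined in *Daphnia magna* that had not been exposed to acute severe hypoxia (ASH), in GB and HU, the 2 clones from permanent ponds. This comparison rests on 12 of the 48 samples of the series, chosen by clone, rearing condition and the absence of acute exposure in the sample labels. The GB CMIH, GB normoxia, HU CMIH and HU normoxia groups had 3 pools each. *D. magna* is a freshwater crustacean that reproduces clonally, so that the animals of a clone share a genotype. CMIH cohorts lived in tanks in which oxygen was brought down to 4 mg/L at regular intervals, and normoxia cohorts lived at 8 mg/L. All pools consisted of 2 whole individuals aged 25 days. The other 36 pools were of GB and HU after 12 h of ASH at 1 mg/L, and of FI and IL, the clones from intermittent ponds, with or without ASH. Pools are called here by clone, rearing condition and the number in their label.

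The animals came from the tanks of 1 experimental block, and the labels do not give the tank of each pool. An effect of tank could therefore not be fitted, and p-values measure the spread between pools and not between tanks. The study's methods name as RNA sequencing controls animals that were kept unfed in flasks at either of the rearing oxygen levels, and also describe unexposed controls that were frozen at once. The labels do not repeat this. In both cases, rearing in the tanks and oxygen at the time of sampling cannot be told apart. Rearing in the tanks was not lifelong, because young animals spent their first days in jars and were then moved. Library preparation and sequencing were done clone by clone, and levels in GB and HU were not compared with each other by a test. Within a clone, the methods describe replicate libraries that each pooled all treatments. The labels do not say which pools shared a library, so the fits and relabellings leave out this grouping.

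The measurements were numbers of Nanopore cDNA reads on each of 6050 transcripts. Read totals were low and uneven, at 65386 to 286515 in the 6 CMIH pools and 43716 to 312768 in the 6 normoxia pools. They were 171198 to 312768 in GB apart from GB normoxia pool 9, which had 49231, and 43716 to 102250 in HU. A level of 3 reads corresponded to 9.59 to 68.6 CPM (counts per 1000000 reads). The number of transcripts with at least 1 read in a pool lay between 4658 and 5883. The labels name whole animals and no tissue, and no markers of cell types could be read, because the identifiers carry no gene names apart from the 4 globins below.

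Arthropods answer low oxygen through hypoxia-inducible factors, transcription factors that become stable when oxygen is scarce. In *Daphnia*, the best known target is hemoglobin, an extracellular oxygen carrier of the hemolymph that makes hypoxic animals visibly red. Cytoglobins are intracellular globins that, in mammals, bind oxygen and remove nitric oxide and reactive oxygen species. The 4 globin transcripts that could be identified, by their labels in a figure of responding transcripts in the study, were therefore described first. They are named by contig and gene number of the reference transcriptome, so that 35F4.44 lies on contig 35F.

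The transcript of the cytoglobin precursor 35F4.44 (length 2869 bases) was the globin with the clearest difference. It had 261, 152 and 135 reads in GB CMIH pools 10, 11 and 12, against 52, 85 and 27 reads in GB normoxia pools 7, 8 and 9. Relative to depth, this was 911, 856 and 789 CPM in GB CMIH pools and 194, 272 and 548 CPM in GB normoxia pools. The GB CMIH pools all lay above the GB normoxia pools, of which the highest was the shallow pool 9. In HU, the transcript had 4, 16 and 8 reads in CMIH pools 7, 8 and 9, against 1, 3 and 2 reads in normoxia pools 4, 5 and 6. These reads corresponded to 39.1, 245 and 121 CPM in HU CMIH pools and to 22.9, 39.9 and 33.4 CPM in HU normoxia pools. HU CMIH pools 8 and 9 lay above all HU normoxia pools, whereas HU CMIH pool 7 lay within their range. Over all transcripts, every CMIH pool lay above every normoxia pool for 328 in GB (5.42%) and 174 in HU (2.88%). Every CMIH pool lay below every normoxia pool for 312 in GB (5.16%) and 163 in HU (2.69%). A lack of overlap within 1 clone was thus not particular to the transcripts named here.

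The mean level of 35F4.44 was 852 ± 61.3 CPM in GB CMIH pools and 338 ± 186 CPM in GB normoxia pools (SD, n = 3 each). In HU the mean was 135 ± 104 CPM in CMIH pools and 32.0 ± 8.58 CPM in normoxia pools (SD, n = 3 each). The ratio of these means was 2.52 in GB and 4.21 in HU. With clone as a block, the log2 fold change of CMIH over normoxia was 1.66 (SE 0.42), with an unadjusted p of 0.0014 in edgeR's quasi-likelihood test, and did not pass adjustment over all transcripts (adjusted p = 0.844). The difference of means on the scale of log2(CPM + 1), averaged over both clones, was 1.59 (two-sided exact permutation test over 400 relabellings within clone, p = 0.01, where the smallest possible p is 0.005). This p is unadjusted and comes from 1 of 4 such tests, 1 for each globin. The globins were named from a figure of transcripts that responded in this series, to which these pools belong. Their p-values are therefore not independent evidence of a response. The clones did not differ detectably in this effect (GB minus HU, log2 difference -0.60, SE 0.86, edgeR adjusted p = 1).

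**Figure D1:**
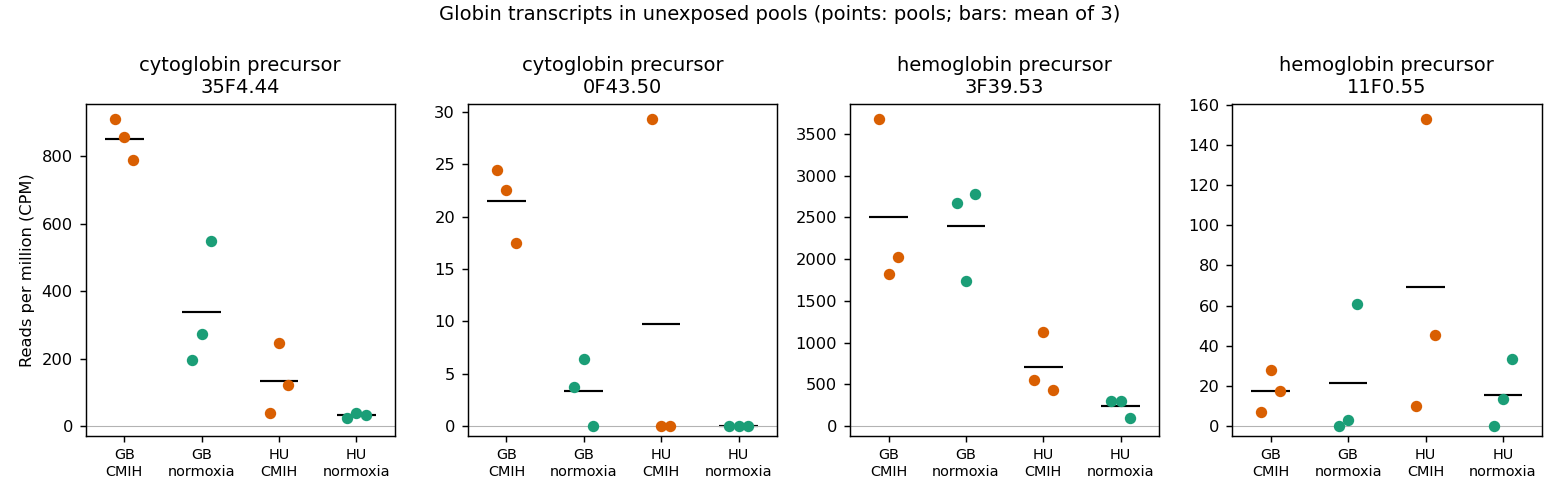
Levels of the 4 globin transcripts in CPM (vertical axis, a scale of its own in each panel) in the 12 unexposed pools, grouped by clone and rearing condition. Points are pools and bars are means of 3 pools. The GB CMIH pools of cytoglobin 35F4.44 sit between 789 and 911 CPM, all above the GB normoxia pools.

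The other cytoglobin precursor, 0F43.50, was close to the limit of detection. It had 7, 4 and 3 reads in GB CMIH pools 10, 11 and 12, against 1, 2 and 0 reads in GB normoxia pools 7, 8 and 9. In HU, CMIH pool 7 had 3 reads, and CMIH pools 8 and 9 and all normoxia pools had 0 reads, which allows levels of up to 68.6 CPM in the shallowest pool. The GB groups did not overlap, and the HU groups did. However, the 0 reads in GB normoxia pool 9 allow up to 60.9 CPM, above the 17.5 to 24.4 CPM of the GB CMIH pools. The separation in GB is therefore uncertain. Over both clones, the log2 fold change was 2.24 (SE 0.73), with an unadjusted p of 0.00806 (edgeR, adjusted p = 1). At equal depth it was 0.38 and with limma-voom 1.21. The exact permutation test gave p = 0.05.

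The hemoglobin precursor 3F39.53 was the most abundant of the 4 globins in reads. It had 3682, 1818 and 2027 CPM in GB CMIH pools 10, 11 and 12, against 2677, 1739 and 2783 CPM in GB normoxia pools 7, 8 and 9. The GB groups overlapped, and pool 10 alone was above the normoxia range. HU CMIH pools 7, 8 and 9 had 548, 1132 and 437 CPM, against 297, 306 and 100.2 CPM in HU normoxia pools 4, 5 and 6. The HU groups did not overlap, and the ratio of their means was 3.01. Fitted alone, the log2 fold change was 0.11 (SE 0.35) in GB and 1.63 (SE 0.64) in HU, and the difference between clones (GB minus HU) was -1.52 (SE 0.77, edgeR adjusted p = 1, unadjusted p = 0.0699). Over both clones it was 0.86 (SE 0.43, edgeR adjusted p = 1), and the exact permutation test gave p = 0.085.

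The hemoglobin precursor 11F0.55 had 2, 5 and 3 reads in GB CMIH pools 10, 11 and 12, against 0, 1 and 3 reads in GB normoxia pools 7, 8 and 9. HU pools had 1, 10 and 3 reads in CMIH pools 7, 8 and 9, against 0, 1 and 2 reads in normoxia pools 4, 5 and 6. The groups overlapped in both clones, and 10 reads in HU CMIH pool 8 were the highest value. The exact permutation test gave p = 0.17 for this transcript, and its edgeR adjusted p was 1.

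RPKM are the reads scaled to transcript length and depth that the authors deposited. In GB CMIH pools, the cytoglobin 35F4.44 had 297 ± 21.4 RPKM and the hemoglobin 3F39.53 had 336 ± 137 RPKM (SD, n = 3 each). Without scaling to length, their means were 852 ± 61.3 and 2509 ± 1021 CPM, so that their closeness depended on this scaling. In HU CMIH pools, they had 47.0 ± 36.1 and 94.5 ± 50.0 RPKM (SD, n = 3 each). In GB normoxia pools, 35F4.44 had 118 ± 64.9 RPKM and 3F39.53 had 321 ± 76.9 RPKM (SD, n = 3 each). The remaining globins averaged at most 29.6 RPKM in any of the 4 groups. Of the 4 globins, 4 had a positive log2 fold change over both clones. In edgeR, 2 of them, both cytoglobins, had an unadjusted p under 0.01, a limit that 28 of all 6050 transcripts passed (0.463%). The 4 were named from a figure of the study that shows transcripts with a significant effect of CMIH or ASH in this series. Their share is therefore not an independent comparison with that of all transcripts. In other pools, 35F4.44 kept a positive value, as described below. In GB and HU after ASH, the log2 fold change was 0.10 (SE 0.63) for 0F43.50 and -0.90 (SE 0.36, edgeR unadjusted p = 0.026) for 11F0.55. In unexposed FI and IL pools, it was 0.21 (SE 0.86) for 0F43.50 and -0.13 (SE 0.96) for 11F0.55. Values of 3F39.53 in those pools are not given here.

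Over all transcripts, 0 of 6050 passed an adjusted p of 0.05 in the 12 pools (0.0%), and the lowest adjusted p was 0.621. DESeq2's likelihood ratio test and limma-voom called 0 as well. In edgeR, an unadjusted p under 0.05 was found for 175 (2.89%), of which 101 were higher and 74 lower in CMIH, and in DESeq2 for 101. The 28 that passed 0.01 in edgeR were 17 higher and 11 lower. The median log2 fold change of all transcripts was 0.04. The precision set the limit of what could be seen. The median SE of a log2 fold change was 0.36 for the 1654 transcripts of 100 CPM or more and 0.47 for the 3600 transcripts of 20 to 100 CPM. The common biological coefficient of variation between pools of a group was 0.505.

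The whole profiles lay no further apart between rearing conditions than between relabelled pools. The distance between the CMIH and normoxia means over all transcripts, in log2(CPM + 1), was 86.9 in GB and 95.2 in HU, with a mean of 91.1. The median over all 400 relabellings within clone was 96.2 (one-sided exact permutation test, p = 0.74, where the smallest possible p is 0.01). Across all transcripts, Spearman's rho between pools of a clone ranged from 0.525 to 0.878, given here as a description. GB CMIH pools 11 and 12 were nearest to each other (rho 0.847), as were GB normoxia pools 7 and 8 (rho 0.878). GB CMIH pool 10 was nearest to GB normoxia pool 8 (rho 0.780). In HU, the nearest pool of every pool was of the other rearing condition. HU CMIH pools 7, 8 and 9 were nearest to HU normoxia pools 6, 4 and 5, in that order, with rho of 0.752, 0.771 and 0.764.

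A like grouping appeared in a principal component analysis after the mean of each clone had been removed, which used 3215 transcripts with at least 10 reads in 3 or more pools. The first component held 37.0% of the variance and the second 16.8%. GB CMIH pool 10, HU CMIH pool 7 and HU normoxia pool 6 had the high scores on the first component, at 66.2, 59.1 and 86.2. HU CMIH pool 9 and HU normoxia pool 5 had the low ones, at -53.9 and -73.6. The main axis of difference between unexposed pools thus crossed the rearing conditions. Which state of the animals or libraries it reflects was not tested.

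**Figure D2:**
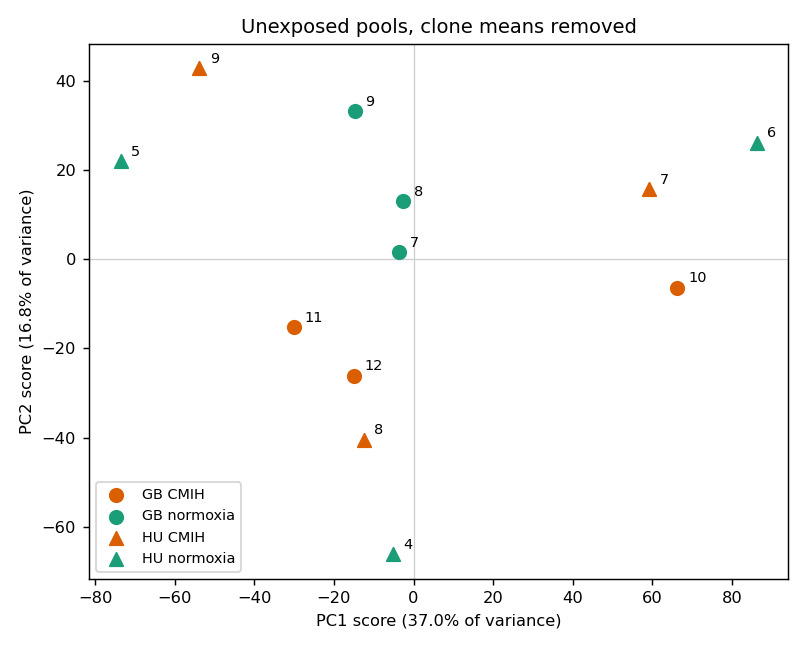
Principal component scores of the 12 unexposed pools from log2(CPM + 1) with clone means removed. The horizontal axis is the first component (37.0% of variance), the vertical axis the second (16.8%), colours mark rearing, symbols mark clone and numbers are pool numbers. HU pools of CMIH and normoxia lie in pairs (7 with 6, 8 with 4, 9 with 5), and GB CMIH pool 10 lies at 66.2 on the first component, away from GB CMIH pools 11 and 12.

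The transcripts with the lowest p in each direction, among those that moved the same way in both clones, are described next. None passed adjustment over all transcripts, and their values were the ones that chose them. Apart from the cytoglobin, they have no description in the files, so that nothing is said of their function.

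The transcript 58F3.45 had the lowest p of those higher in CMIH. It had 24, 164 and 134 reads in GB CMIH pools 10, 11 and 12, against 14, 12 and 3 reads in GB normoxia pools 7, 8 and 9. This was 83.8, 923 and 783 CPM in GB CMIH pools and 52.3, 38.4 and 60.9 CPM in GB normoxia pools. The GB groups did not overlap, but pool 10 stood near the normoxia pools and 11 and 12 far above. In HU, 5 reads in CMIH pool 7 were the only ones, with 0 reads in the other 5 pools. Its log2 fold change was 3.62 (SE 0.77, edgeR adjusted p = 0.621).

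On the same contig, 58F3.110 had 754, 2787 and 2436 CPM in GB CMIH pools 10, 11 and 12, against 486, 598 and 731 CPM in GB normoxia pools 7, 8 and 9. HU pools had 499, 138 and 90.5 CPM in CMIH pools 7, 8 and 9, against 91.5, 66.5 and 50.1 CPM in normoxia pools 4, 5 and 6. As for 58F3.45, the highest pools were GB CMIH 11 and 12, and in HU it was CMIH pool 7. Its log2 fold change was 1.81 (SE 0.44, edgeR adjusted p = 0.844). Like 58F3.45, the transcripts 18F23.85 (2.35, SE 0.53) and 14F3.19 (2.66, SE 0.67) were lower in GB CMIH pool 10 than in GB CMIH pools 11 and 12. The transcript 18F23.85 had 105, 225 and 175 CPM in these 3 pools, and 14F3.19 had 52.4, 197 and 286 CPM.

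The transcript 28F3.33 was high in every GB CMIH pool, at 394, 225 and 730 CPM in pools 10, 11 and 12, against 52.3, 32.0 and 81.2 CPM in GB normoxia pools 7, 8 and 9. In HU, CMIH pools 7, 8 and 9 had 401, 245 and 166 CPM, against 366, 106 and 33.4 CPM in normoxia pools 4, 5 and 6. The GB groups did not overlap and the HU groups did. Its log2 fold change was 3.17 (SE 0.54) in GB, 0.81 (SE 0.75) in HU and 2.01 (SE 0.60) over both clones (edgeR adjusted p = 1).

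The other 4 transcripts of the higher group had 41 to 111 reads over all 12 pools. They were 3F16.80 (log2 fold change 2.16, SE 0.57), 36F0.33 (1.47, SE 0.42), 46F5.15 (1.73, SE 0.53) and 12F26.77 (1.43, SE 0.46). Of these, 36F0.33 and 46F5.15 separated the rearing conditions in both clones, on few reads. For both, GB normoxia pool 9 had 0 reads, which allows levels of up to 60.9 CPM. The highest GB CMIH pools had 39.4 CPM for 36F0.33 and 52.6 CPM for 46F5.15, so that this separation is uncertain. The transcript 46F5.15 had 11, 8 and 9 reads in GB CMIH pools 10, 11 and 12, against 0, 5 and 0 reads in GB normoxia pools 7, 8 and 9. HU pools had 5, 3 and 3 reads in CMIH pools 7, 8 and 9, against 1, 2 and 2 reads in normoxia pools 4, 5 and 6. Over all transcripts, such separation in both clones was found for 5 higher (0.0826%) and 6 lower (0.0992%) in CMIH. These 11 had 31 to 1230 reads over the 12 pools, and 10 of them had fewer than 100.

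The transcripts lower in CMIH were of another kind. The first 8 had at most 4 reads in any CMIH pool and had their reads in the same few normoxia pools. The transcript 18F7.82, with the lowest p of all, had 0 reads in each of the 3 GB CMIH pools, against 12, 45 and 2 reads in GB normoxia pools 7, 8 and 9. In HU it had 1 read in CMIH pool 9 and 4 reads in normoxia pool 5, with 0 reads in the other 4 pools. With 3 reads per pool taken as the floor in GB CMIH, it was at least 5.11-fold lower there than in GB normoxia. Its edgeR adjusted p was 0.621.

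The transcripts 36F6.71, 36F3.24, 13F15.57 and 3F13.71 followed the same pools. 36F6.71 had 0, 0 and 1 reads in GB CMIH pools 10, 11 and 12, against 8, 15 and 1 reads in GB normoxia pools 7, 8 and 9. 3F13.71 had 0, 0 and 1 reads in GB CMIH pools, against 20, 11 and 1 reads in GB normoxia pools. For all 8 transcripts, HU normoxia pool 5 was the only HU normoxia pool with a read. The transcripts 67F2.43 and 67F3.156 lie on 1 contig, have the same length of 1363 bases and nearly the same reads, and may be copies between which the mapping split reads, so that they count as 1 uncertain observation. The fold changes of these few-read transcripts depended on the setting, and that of 67F2.43 was -2.85, but -1.08 at equal depth.

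The last 2 of the lower group had reads in most pools. The transcript 26F6.56 had 94.2, 135 and 70.1 CPM in GB CMIH pools 10, 11 and 12, against 228, 342 and 427 CPM in GB normoxia pools 7, 8 and 9. The GB groups did not overlap. In HU, it had 68.5, 45.9 and 60.3 CPM in CMIH pools 7, 8 and 9, against 45.7, 106 and 66.8 CPM in normoxia pools 4, 5 and 6, and the groups overlapped. Over both clones, 26F6.56 had a log2 fold change of -1.13 (SE 0.36, edgeR adjusted p = 1). The value was -1.46 (SE 0.49, edgeR adjusted p = 1) for 28F14.8, with 35 reads in all. At equal depth these were -2.09 for 26F6.56 and -0.25 for 28F14.8.

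**Figure D3:**
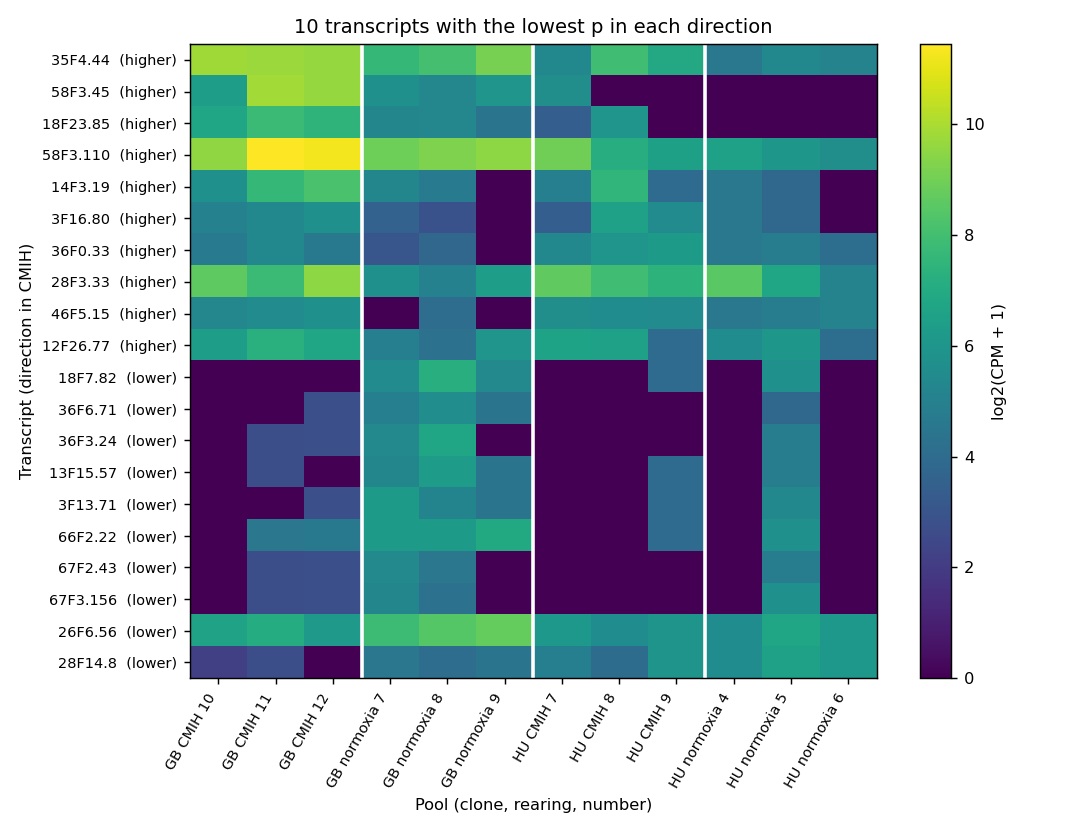
Level of the 10 transcripts with the lowest p in each direction, as log2(CPM + 1) in colour, in the 12 unexposed pools (columns, in the order GB CMIH, GB normoxia, HU CMIH and HU normoxia, with pool numbers). The first 8 of the lower transcripts are dark (0 or a few reads) in most pools and have their HU normoxia reads in pool 5.

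Taken alone, GB had 281 transcripts with an unadjusted p under 0.05 (4.64%), 145 higher and 136 lower in CMIH, and 0 with an adjusted p under 0.05 (edgeR, lowest adjusted p = 0.197). DESeq2 called 4, namely 15F13.27, 28F3.33, 18F7.82 and 52F3.36. The lowest p was that of 52F3.36, with 83.8, 84.4 and 64.3 CPM in GB CMIH pools 10, 11 and 12, against 404, 723 and 731 CPM in GB normoxia pools 7, 8 and 9. The GB groups were far apart, with a log2 fold change of -2.95 (SE 0.38). In HU, the same transcript had 58.7, 30.6 and 769 CPM in CMIH pools 7, 8 and 9, against 22.9, 771 and 0 CPM in normoxia pools 4, 5 and 6. It was thus high in HU pools 9 and 5, 1 of each rearing condition. These 4 transcripts, apart from those that the naming rule gave, were chosen after their values were seen.

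The result in GB depended on CMIH pool 10. Without it, 218 transcripts had an adjusted p under 0.05 in edgeR (3.6%), 131 higher and 87 lower in the remaining CMIH pools, and of these 0 did so with it. The 131 had a median log2(CPM + 1) of 3.00, 7.99 and 7.80 in GB CMIH pools 10, 11 and 12, against 5.11, 4.55 and 4.41 in GB normoxia pools 7, 8 and 9. The 87 had a median of 7.34, 3.62 and 4.21 in GB CMIH pools 10, 11 and 12, against 7.61, 7.66 and 8.05 in GB normoxia pools 7, 8 and 9. Single transcripts went both ways in pool 10. Of the 131, it lay above all GB normoxia pools for 23, below all for 42 and within their range for 66. Of the 87, it lay above all for 44, below all for 33 and within their range for 10. Pool 10 had the most reads of the GB CMIH pools, and the labels give no ground to leave it out.

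In HU, the median log2 fold change was -0.41 for the 131 and 0.35 for the 87, each opposite in sign to that in GB without pool 10. An unadjusted p under 0.05 in HU was found for 9 of the 218 (4.13%), against 1.22% of all transcripts. In HU, the 131 had a median log2(CPM + 1) of 3.43, 7.27 and 4.96 in CMIH pools 7, 8 and 9, against 6.53, 6.91 and 0 in normoxia pools 4, 5 and 6. The set was low in HU CMIH pool 7 and HU normoxia pool 6, the pools that stood with GB CMIH pool 10 on the first principal component. An example is 13F9.100, chosen after its values were seen, with 1, 140 and 129 reads in GB CMIH pools 10, 11 and 12, against 2, 5 and 1 reads in GB normoxia pools 7, 8 and 9. The transcript 8F28.54, chosen in the same way, had 487, 4 and 6 reads in these GB CMIH pools, against 155, 257 and 58 reads in the GB normoxia pools.

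**Figure D4:**
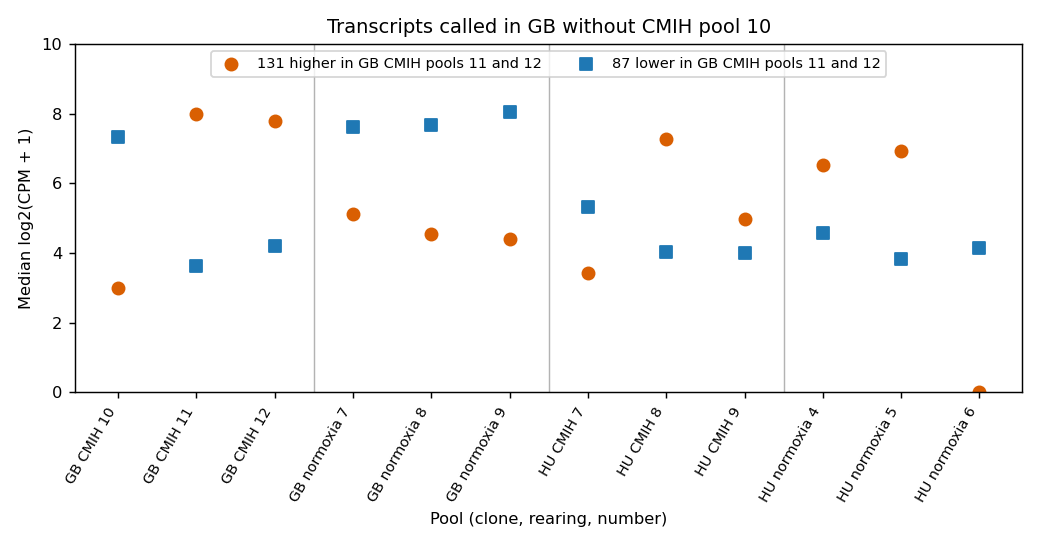
Median level, in log2(CPM + 1), of the 131 transcripts higher and the 87 lower in GB CMIH when pool 10 is left out, in each of the 12 unexposed pools. GB CMIH pool 10 lies at 3.00 and 7.34, away from GB CMIH pools 11 and 12, and the first set ranges from 0 to 7.27 among HU pools.

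Taken alone, HU had 74 transcripts with an unadjusted p under 0.05 (1.22%), 42 higher and 32 lower in CMIH, and 0 with an adjusted p under 0.05 in edgeR or DESeq2 (9 with an unadjusted p under 0.05 in DESeq2). The spread was larger than in GB. The common coefficient of variation was 0.615 in HU and 0.425 in GB, and the median SE of transcripts of 100 CPM or more was 0.57 in HU and 0.37 in GB. A change in HU therefore had to be larger to be seen.

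The difference between clones in the effect of CMIH (GB minus HU) had an unadjusted p under 0.05 for 201 transcripts (3.32%) and an adjusted p under 0.05 for 0 (edgeR and DESeq2, with 103 at an unadjusted p under 0.05 in DESeq2). The 3 with the lowest p were 2F43.27, 36F8.94 and 260F0.0. The transcript 260F0.0 had 76.8, 84.4 and 58.4 CPM in GB CMIH pools 10, 11 and 12, against 101, 118 and 142 CPM in GB normoxia pools 7, 8 and 9. HU pools had 2719, 3151 and 2849.8 CPM in CMIH pools 7, 8 and 9, against 1418, 1303 and 1386 CPM in normoxia pools 4, 5 and 6. It was thus lower in all GB CMIH pools and higher in all HU CMIH pools than in the normoxia pools of the clone. Its log2 fold change was -0.66 (SE 0.33) in GB and 1.15 (SE 0.43) in HU, and their difference was -1.82 (SE 0.53, edgeR adjusted p = 1).

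The transcript 2F43.27 went the other way. It had 41.9, 39.4 and 40.9 CPM in GB CMIH pools 10, 11 and 12, against 11.2, 35.2 and 0 CPM in GB normoxia pools 7, 8 and 9. In HU it had 0, 15.3 and 0 CPM in CMIH pools 7, 8 and 9, against 45.7, 79.8 and 100.2 CPM in normoxia pools 4, 5 and 6. The groups did not overlap in either clone, with opposite directions, on at most 12 reads a pool (difference 4.73, SE 1.22, edgeR adjusted p = 1). The 0 reads in GB normoxia pool 9 allow up to 60.9 CPM, so that the separation in GB is uncertain. In HU, the 0 reads in CMIH pool 9 allow up to 45.2 CPM, close to the lowest normoxia value. The high GB level of 36F8.94 came from CMIH pools 11 and 12, with 29 and 26 reads, whereas CMIH pool 10 had 1 read.

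The 5 most abundant transcripts by mean CPM over the 12 pools showed no change that exceeded their spread. The first, 292F0.4, had 13751, 15002 and 13277 CPM in GB CMIH pools 10, 11 and 12, against 13308, 12923 and 27869 CPM in GB normoxia pools 7, 8 and 9. Its log2 fold change over both clones was 0.10 (SE 0.29). It was 0.48 (SE 0.39) for 4F31.49, -0.13 (SE 0.35) for 163F0.27, 0.24 (SE 0.39) for 66F1.41 and -0.02 (SE 0.37) for 292F0.9, each with an edgeR adjusted p of 1. For each of them, the value plus 2 SE lay above 0.5 on the log2 scale. In CMIH pools, 163F0.27 averaged 627 CPM in GB and 28628 CPM in HU. For 292F0.9, these means were 426 and 20872 CPM, so that the rank of both rests on HU.

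The list of 28 (unadjusted p under 0.01) was then read in pools that had not chosen them. In the 12 GB and HU pools after ASH, 19 of 28 had the same direction, against 53.3% of all transcripts, and 3 had it with an unadjusted p under 0.05, against 2.26%. In the 12 unexposed FI and IL pools, 25 of 28 had the same direction, against 54.0% of all transcripts, and 3 had it with an unadjusted p under 0.05, against 1.22%. After ASH, the median log2 fold change was 0.40 for the 17 higher and -0.15 for the 11 lower transcripts, and -0.03 over all transcripts. In FI and IL, it was 0.58 for the higher and -0.76 for the lower transcripts, and 0.04 over all transcripts. In the unexposed GB and HU pools that chose the list, it was 2.01 and -2.92. The median effects were thus smaller in the pools that had not chosen them. These pools may come from the same tanks as those of the main comparison, and the counts were not tested. The listed transcripts are also not independent of each other. Most of the lower ones had their unexposed GB and HU reads mainly in the same few normoxia pools. The list also counts both of the possible copies described above. The counts are therefore not 28 separate agreements, and setting them against the share of all transcripts is a description only.

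**Figure D5:**
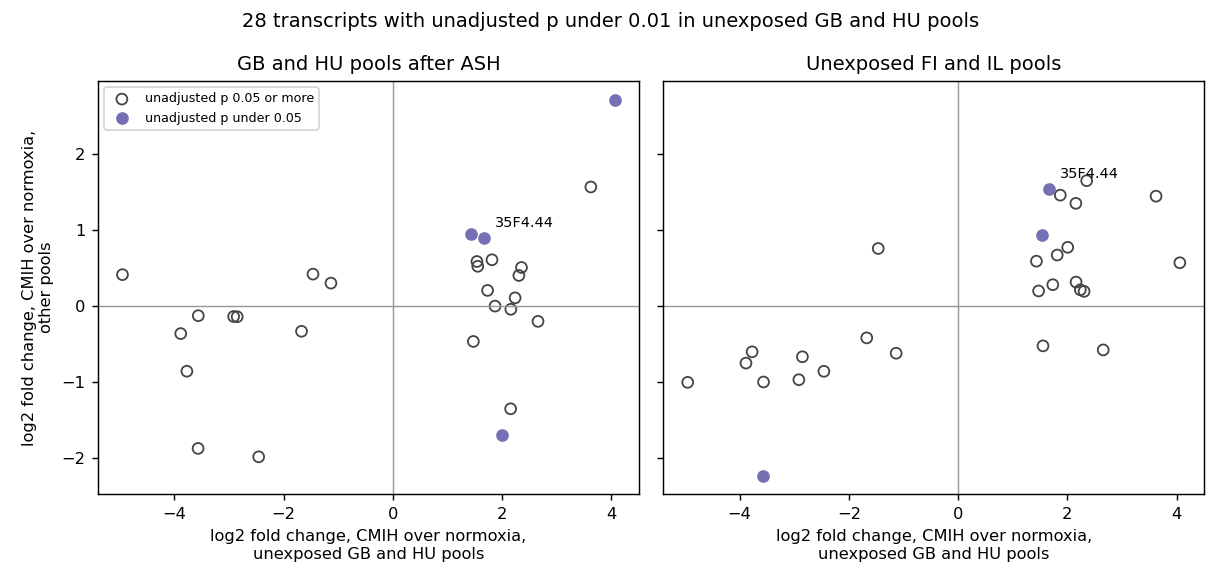
Log2 fold change (CMIH over normoxia) of the 28 listed transcripts (unadjusted p under 0.01) in unexposed GB and HU pools (horizontal axis), against that in GB and HU pools after ASH (left, vertical axis) and in unexposed FI and IL pools (right). Filled points had an unadjusted p under 0.05 in the other pools, and 19 (left) and 25 (right) of 28 had the same sign.

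The cytoglobin 35F4.44 was the only one of the 28 that had an unadjusted p under 0.05 in the same direction in both other sets of pools. In GB after ASH, its median was 1925 CPM in CMIH pools (1377 to 2143) and 938 CPM in normoxia pools (669 to 967), without overlap. In HU after ASH, it was 596 CPM in CMIH pools (428 to 741) and 331 CPM in normoxia pools (289 to 497), with overlap. After ASH, the log2 fold change was 0.89 (SE 0.28, edgeR adjusted p = 0.737, unadjusted p = 0.00617). In unexposed FI pools, the median was 342 CPM in CMIH (329 to 617) and 199.8 CPM in normoxia (148 to 237), and in unexposed IL pools it was 536 CPM in CMIH (418 to 571) and 157 CPM in normoxia (154 to 160). Neither FI nor IL overlapped. The share of all transcripts without overlap was not counted in these pools or in those after ASH. Their log2 fold change was 1.54 (SE 0.25, edgeR adjusted p = 0.107, unadjusted p = 1.77e-05), the lowest p of all transcripts in that comparison. The effect in unexposed pools of GB and HU and that of FI and IL did not differ detectably (permanent minus intermittent, log2 difference 0.15, SE 0.45, edgeR adjusted p = 1). In that test, 143 of all transcripts had an unadjusted p under 0.05 (2.36%).

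The transcript 28F3.33 differed between unexposed pools and pools after ASH. In GB after ASH, its median was 121 CPM in CMIH pools (92.5 to 134) and 210 CPM in normoxia pools (118 to 325). In HU after ASH, it was 78.2 CPM in CMIH pools (13.4 to 80.8) and 328 CPM in normoxia pools (245 to 703). Its log2 fold change was -1.71 after ASH (SE 0.49) and 2.01 without. Their difference (controls minus ASH) was 3.65 (SE 0.76), with the lowest p of all transcripts in that test, which did not pass adjustment (edgeR adjusted p = 0.272). In that test, 160 transcripts had an unadjusted p under 0.05 (2.64%). The transcript was among those with a low p in unexposed pools, and these values are a description.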

How the data were processed

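RNA was sequenced from pools of 2 *D. magna*. Per the study's methods, the authors basecalled, demultiplexed and mapped Nanopore cDNA reads with ONT Guppy to a reference transcriptome with 1 isoform per gene. The table they deposited holds raw counts of 6050 transcripts, each with 72 reads or more over the series, and RPKM, which the authors scaled by transcript length and total reads. Low depth makes counts of a few reads imprecise, and floors of 3 reads cover counting error only. Groups came from the labels, and the members, lists and tests were chosen with earlier results of these data known. Of the transcript identifiers, 0 matched the RefSeq gene table, and the globins were named from the study's own labels.

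Counts of the 12 pools were fitted with edgeR 4.0.16 in R 4.3.3 (TMM, quasi-likelihood F test, clone as a block, Benjamini-Hochberg over all transcripts), without a further filter, and SEs were approximated from the fold change and F. Each clone alone and the clone, ASH and habitat interactions were fitted likewise. Named were the 4 globins, up to 10 transcripts per direction with the lowest p and the same direction in both clones, transcripts past an adjusted p of 0.05 in 1 clone (0 were), the 3 with the lowest p for the clone interaction and the 5 most abundant. Globins and profile distances were tested on log2(CPM + 1), a pseudocount of 1, by exact permutation within clone. Alternatives were DESeq2 1.42.0, limma-voom 3.58.1, other normalizations, filters and pseudocounts, equal depth (43716 reads) and leaving out each pool. The scripts were tested on simulated data. Python 3.11.15, numpy 2.4.6, pandas 2.3.3 and matplotlib 3.10.9 were used for tables and figures.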

Additional observations from a re-analysis of the deposited data

How the results depend on the processing

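The 12-pool comparison kept 0 transcripts at an adjusted p under 0.05 under every planned setting except 1. Leaving out each pool in turn gave 0 to 2, and the 2 came without GB CMIH pool 10 (58F3.45, log2 fold change 4.16, and 0F6.42, both with an adjusted p of 0.0347, where the adjusted p of 58F3.45 ranged from 0.0347 to 1 over the settings). The first principal component as a covariate, a setting chosen after seeing the data, also gave 2. In GB alone, DESeq2 gave 4, robust dispersions gave 1, and leaving out each pool gave 0 to 218, with 218 without CMIH pool 10 and 2 without CMIH pool 11. HU alone and the difference between clones stayed at 0 under all settings run.

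The counts at an unadjusted p under 0.05 moved by over 1.5 times in these cases. DESeq2 gave 101 in the 12 pools, 164 in GB, 9 in HU and 103 for the difference between clones. The filter on low counts, under which fewer transcripts were tested, gave 65, 120, 12 and 94 in the same order. The first component as a covariate gave 334 in the 12 pools, and the spread of both clones gave 181 in HU. Leaving out 1 pool gave 126 to 246 in the 12 pools, 176 to 692 in GB, 77 to 142 in HU and 142 to 304 for the difference between clones.

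The profile distance kept a p of 0.44 to 0.9 over its settings. The exact p of cytoglobin 35F4.44 was 0.005 to 0.03, with a difference of 1.29 to 1.94. Over all settings, pseudocounts included, the difference was 0.96 to 3.36 for 0F43.50 (exact p 0.02 to 0.1) and 0.84 to 3.01 for 11F0.55 (p 0.03 to 0.355), and leaving out 1 pool gave 1.38 to 2.61 and 1.14 to 2.71. Among the named transcripts with few reads, limma-voom or equal depth gave the log2 fold changes nearest 0, of 0.38 for 0F43.50, -0.25 for 28F14.8, -1.08 for 67F2.43, -1.33 for 67F3.156, -1.87 for 36F6.71 and -3.18 for 18F7.82, whereas equal depth gave -2.09 for 26F6.56. The sign turned for 3 abundant transcripts near 0. It was 0.033 for 292F0.9 under limma-voom. Without 1 pool, log2 fold changes were -0.17 to 0.29 for 292F0.9 and -0.29 to 0.11 for 163F0.27 (positive without GB CMIH pool 10 or GB normoxia pool 9), and -0.011 to 0.31 for 292F0.4 (negative without HU CMIH pool 8). The cause was not tested. No paired analysis was possible because the groups compared share no replicate numbers, and the labels do not say which pools shared a library. Depth limits the comparison, above all in HU and in GB normoxia pool 9.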

Other observations

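The transcripts 18F7.81, 1F21.43 and 52F3.36, chosen after their values were seen, had most of their reads in the same pools. In GB, 18F7.81 had 0, 22 and 0 reads in CMIH pools 10, 11 and 12, against 297, 937 and 74 reads in normoxia pools 7, 8 and 9. In HU, it had 0, 1 and 109 reads in CMIH pools 7, 8 and 9, against 0, 198 and 0 reads in normoxia pools 4, 5 and 6. The transcript 1F21.43 had 9, 169 and 12 reads in the GB CMIH pools, against 584, 1439 and 128 reads in the GB normoxia pools. HU pools had 0, 5 and 140 reads in CMIH pools 7, 8 and 9, against 3, 330 and 0 reads in normoxia pools 4, 5 and 6. These transcripts were high in all GB normoxia pools and in HU pools 9 and 5, of which 1 was reared in CMIH and 1 in normoxia. Without GB CMIH pool 11, 1F21.43 and 18F7.81 were the 2 transcripts called in GB.

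The transcript 18F10.69, also chosen after its values were seen, had 1370 reads in HU normoxia pool 6, or 22872 CPM, against at most 17 reads in any other of the 12 pools.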
